A study of Rattus norvegicus with 8 samples.

Results

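A set of 8 genes of antigen presentation and costimulation (*RT1-Da*, *RT1-Ba*, *Cd74*, *Ciita*, *Cd80*, *Cd86*, *Cd40* and *Ubd*) were followed in rat peripheral blood mononuclear cells (PBMCs) that had been cultured with plasma of other rats. All 8 genes, of the 14217 genes measured, were chosen by symbol, through every probe set annotated to one of these symbols alone, which gave 13 probe sets. A probe set is a group of short oligonucleotides on the array that reads the transcript of 1 gene. In the study, plasma was drawn at age PD114 (PD, postnatal day) from male Sprague-Dawley (SD) rats that had breathed either 5% O2 (5% IH, pool of 5 rats), 10% O2 (10% IH, pool of 3 rats) or 21% O2 (control, normoxia, pool of 8 rats) for 1 h daily on postnatal days 2 to 6, the hypoxia being given as intermittent cycles (IH). PBMCs of 2 healthy male Brown Norway (BN) rats of about 180 days, numbered BN1 and BN2, were cultured for 6 h with 20% of one of these plasmas or with BN plasma (autologous), at 500000 cells per culture, and RNA was read on 1 array per plasma and BN rat. Thus all 4 groups (5% IH, 10% IH, control and autologous) held 2 arrays each, and all 8 arrays read PBMCs of adult BN rats, which by the labels differed in plasma and donor alone. Each SD plasma was pooled once, so the spread within a group is the spread between cells of 2 BN rats, and no p-value here covers the spread between plasma donors. The labels of the autologous arrays name both BN rats for one array, so that which rat gave cells and which gave plasma is not certain for that group.

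MHC class II molecules are pairs of an alpha and a beta chain that carry peptides to the surface of B cells, monocytes, macrophages and dendritic cells, where CD4+ T cells read them. In the rat, *RT1-Da* and *RT1-Ba* encode the alpha chains of the D and B molecules, *Cd74* encodes the invariant chain that guards the groove until peptide is loaded, and *Ciita* encodes the coactivator that turns class II genes on through a shared promoter module. A T cell also needs a second signal. *Cd80* and *Cd86* encode the B7 ligands of CD28 and CTLA-4, and *Cd40* encodes the receptor through which CD40 ligand on T cells licenses the presenting cell. *Ubd* encodes FAT10, a ubiquitin-like modifier that marks proteins for the proteasome, lies in the MHC region, and is known to be induced by TNF and interferon gamma.

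Upstream sequences are shown for 2 genes that stayed level between the SD plasmas, *RT1-Da* and *RT1-Ba*, and for 2 that did not, *Ubd* and *Cd86*. Each run holds the 150 bases before an annotated start, from RefSeq on the GRCr8 build, 5′ to 3′ along the gene. Capitals mark matches, on either strand, to the X box core GCAACNG, the Y box TGATTGG, an NF-kB-like motif GGNNTTTCC or a GAS-like motif TTCNNNGAA. No 2 matches overlap in these runs.
RT1-Da, chr20:4515265-4515414, + strand: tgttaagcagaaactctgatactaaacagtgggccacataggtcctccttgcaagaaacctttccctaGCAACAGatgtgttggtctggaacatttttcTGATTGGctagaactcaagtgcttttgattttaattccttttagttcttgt
RT1-Ba, chr20:4576907-4577056, + strand: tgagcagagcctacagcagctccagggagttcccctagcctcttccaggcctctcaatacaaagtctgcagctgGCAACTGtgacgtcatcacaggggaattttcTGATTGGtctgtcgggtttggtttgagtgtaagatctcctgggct
Ubd, chr20:1392686-1392835, - strand: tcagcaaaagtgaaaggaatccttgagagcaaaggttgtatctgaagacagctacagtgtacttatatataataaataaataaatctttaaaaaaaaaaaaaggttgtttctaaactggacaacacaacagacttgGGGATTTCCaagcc
Cd86, chr11:77669131-77669280, + strand: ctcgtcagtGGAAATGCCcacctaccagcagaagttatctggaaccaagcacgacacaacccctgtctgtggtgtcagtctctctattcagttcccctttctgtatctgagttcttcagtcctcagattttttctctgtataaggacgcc

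Both class II genes held an X box core and a Y box on the same strand with 31 bases from the start of one to the start of the other. A pair of these motifs on 1 strand, 20 to 40 bases apart, was present in 20 of 33469 promoters over the 250 bases before the start (0.0598%), whereas the X box core alone was present in 9.78% and the Y box alone in 6.42%. *Ubd* held the NF-kB-like motif from base -14 relative to its start, and *Cd86* held 2 such matches, from bases -207 and -141, of which the nearer is in the run shown. That motif was present in 5.19% of all promoters and the GAS-like motif in 7.67%, which none of the 4 sequences shown held. Promoters were found for 6 of the 8 genes, among them *Cd74* and *Cd80*, which are not shown. *Cd74*, which stayed level between the SD plasmas, also held an NF-kB-like match, from base -106, and no match to the X box core or Y box. *Cd80* held an X box core from base -169 and a GAS-like match from base -73. The NF-kB-like motif was thus not limited to the genes that differed. These letters are descriptions of the reference sequence, and binding was not measured.

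Values are log2 signals as deposited, and a difference between groups is given as a log2 ratio, the mean of the first-named group minus that of the second. A gene was represented by its brightest probe set. It met the study's criterion where a Rank Product 1-sided permutation p was under 0.05 and the groups differed by more than 1.2-fold. Between the SD plasmas the p, as computed here, removed none of the probe sets past the fold threshold. The criterion as applied here thus acted as a fold threshold there. For 10% IH against control, all 2157 probe sets past the fold threshold met the criterion. The paper reports a smaller number for that comparison, and the same number as here for the other IH plasma against control. The reason for the smaller number was not tested. Beside the criterion, limma gave a p-value adjusted by the Benjamini-Hochberg method over all 31042 probe sets, which is limma's adjusted p throughout. With 2 arrays against 2, an exact 2-sided permutation test of a single gene cannot give a p under 0.333. Array medians lay between 5.53 and 5.56. SD plasma arrays correlated with one another at 0.995 to 0.998 over all probe sets, and with the autologous arrays at 0.990 to 0.993. The signal of a probe set is not comparable with that of another.

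No class II member met the criterion or passed limma's test between the 3 SD plasmas, while *Cd86* and *Ubd* were lower with 10% IH than with either other SD plasma by the criterion. *RT1-Da* had signals of 12.76 and 12.66 with 5% IH, 12.83 and 12.54 with 10% IH, 12.72 and 12.64 with control, and 12.68 and 12.42 with autologous plasma (BN1 and BN2 in this order, here and below). Groups overlapped in every pair. The log2 ratio was 0.03 for 5% IH against control (95% interval -0.26 to 0.32) and 0.01 for 10% IH against control (-0.28 to 0.29).

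**Figure D1:**
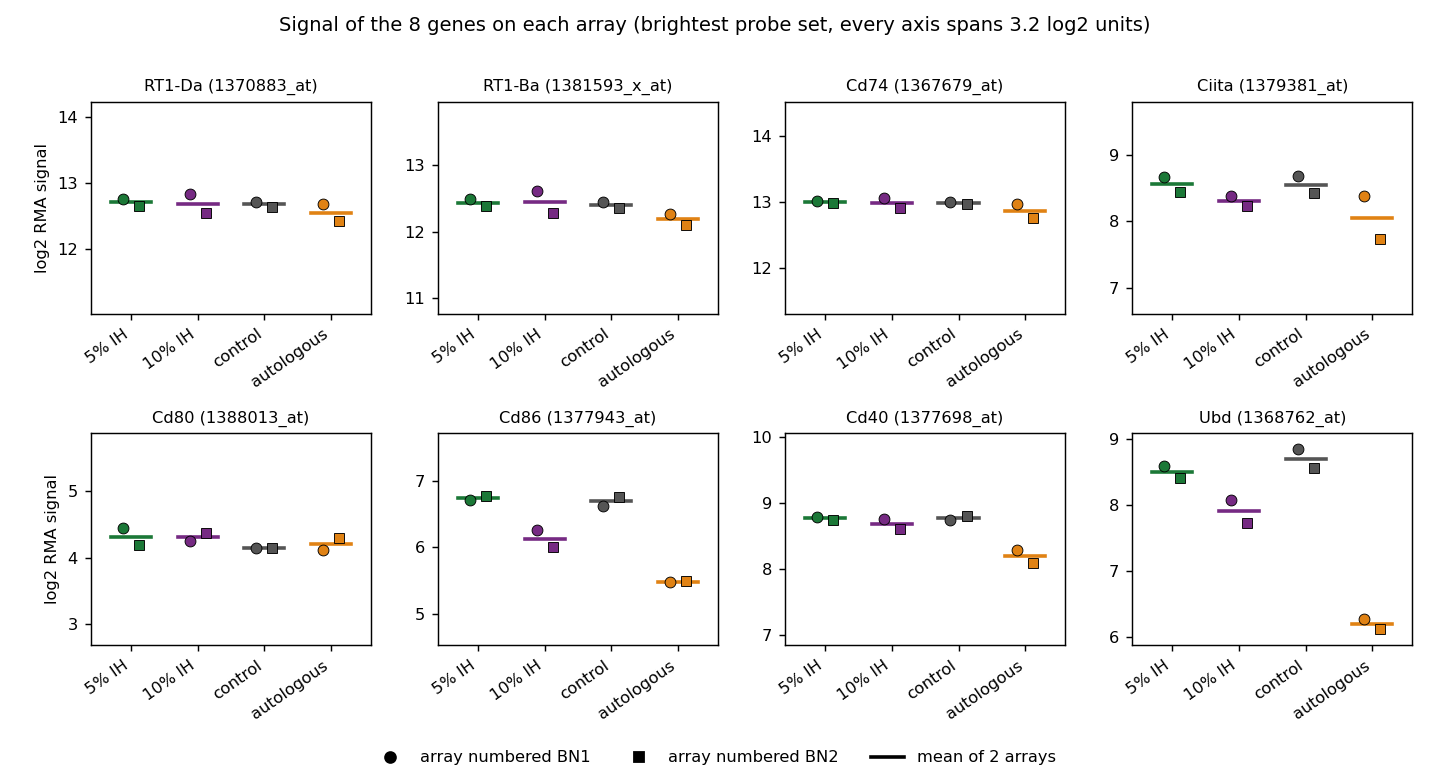
Signal of each of the 8 genes (log2 RMA units, vertical axis) by plasma group (horizontal axis), with circles for arrays numbered BN1, squares for BN2 and bars for the mean of 2 arrays. *RT1-Da*, *RT1-Ba*, *Cd74* and *Cd80* are nearly level, *Cd86* and *Ubd* are lower with 10% IH (means 6.13 and 7.91) than with control plasma (6.69 and 8.70), and *Ubd* is lowest with autologous plasma (6.19).

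*RT1-Ba* was read by 4 probe sets. Its brightest one, whose suffix marks oligonucleotides that may also match other transcripts, had signals of 12.49 and 12.39 with 5% IH, 12.62 and 12.28 with 10% IH, 12.45 and 12.36 with control, and 12.27 and 12.10 with autologous plasma. The SD plasmas overlapped, and the log2 ratio to control was 0.04 for 5% IH and 0.05 for 10% IH. The next, 1392334_at, gave 0.02 and 0.02, and 1370822_at gave -0.01 and 0.07. The dimmest, 1377334_at, lay among the 40% of probe sets with the lowest means and gave -0.09 and -0.25. None of the 4 met the criterion in any of these comparisons.

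*Cd74* had signals of 13.02 and 12.99 with 5% IH, 13.07 and 12.91 with 10% IH, 13.00 and 12.97 with control, and 12.98 and 12.76 with autologous plasma. This gave the narrowest range of the 8 genes, 0.32 over the 8 arrays, and log2 ratios to control of 0.02 with 5% IH (95% interval -0.21 to 0.26) and 0.01 with 10% IH (-0.23 to 0.25). For the 2 alpha chains and *Cd74*, the array numbered BN1 was brighter than that numbered BN2 in all 4 groups, by 0.29, 0.34 and 0.16 with 10% IH in the order given here, and by 0.02 to 0.09 with 5% IH and control plasma.

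*Ciita* was read by 2 probe sets that did not run alike. The brighter, 1379381_at, had signals of 8.67 and 8.45 with 5% IH, 8.39 and 8.24 with 10% IH, 8.68 and 8.43 with control, and 8.38 and 7.73 with autologous plasma, so that 10% IH arrays lay below both control arrays. Its log2 ratio for 10% IH against control was -0.24 (SE 0.195, 95% interval -0.68 to 0.21), under the fold threshold, and passed it without the 10% IH BN1 array (-0.31) or without the control BN2 array (-0.36). The other, 1369214_a_at, had 6.88 and 6.85 with 5% IH, 7.27 and 6.71 with 10% IH, and 6.96 and 6.95 with control, a log2 ratio of 0.03 for 10% IH. With 5% IH the log2 ratios to control were 0.01 and -0.09 for the 2 probe sets.

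*Cd86* fell with 10% IH plasma. Its brighter probe set, 1377943_at, had signals of 6.71 and 6.77 with 5% IH, 6.26 and 6.00 with 10% IH, 6.63 and 6.76 with control, and 5.47 and 5.49 with autologous plasma. Arrays of 5% IH and control plasma overlapped, those of 10% IH lay below both, and those of autologous plasma lay lowest. The log2 ratio was -0.56 for 10% IH against control (SE 0.107, 1.48-fold lower, limma's adjusted p = 0.920), 0.05 for 5% IH against control (95% interval -0.20 to 0.29), and 0.61 for 5% IH against 10% IH (1.53-fold higher, limma's adjusted p = 0.981). Within BN1 the ratio for 10% IH was -0.37 and within BN2 -0.76.

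The second *Cd86* probe set, 1387627_at, had signals of 6.22 and 6.41 with 5% IH, 6.35 and 5.95 with 10% IH, 6.37 and 6.46 with control, and 5.67 and 5.80 with autologous plasma. It met the criterion for 10% IH against control at -0.27 (SE 0.138), but nearly all of this came from BN2 (-0.51, against -0.02 within BN1). For 5% IH against 10% IH it did not meet the criterion (0.17, 95% interval -0.15 to 0.48), and its arrays overlapped.

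*Cd80*, the other B7 ligand, had signals of 4.44 and 4.19 with 5% IH, 4.25 and 4.37 with 10% IH, 4.14 and 4.15 with control, and 4.11 and 4.30 with autologous plasma. Its probe set also lay among the dimmest 40%. The log2 ratio was 0.16 for 5% IH against control (95% interval -0.09 to 0.42) and 0.17 for 10% IH against control (-0.09 to 0.42), and the 2 IH plasmas differed by -0.00161 (-0.26 to 0.26). Without the 5% IH BN2 array the first of these became 0.29 and met the criterion.

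*Cd40* had signals of 8.79 and 8.74 with 5% IH, 8.75 and 8.61 with 10% IH, 8.74 and 8.80 with control, and 8.29 and 8.10 with autologous plasma. The SD plasmas overlapped and the autologous arrays lay below all 6 of them. Its log2 ratio to control was -0.01 with 5% IH (95% interval -0.23 to 0.22) and -0.09 with 10% IH (-0.32 to 0.13).

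*Ubd* was the member with the widest range, 2.73 over the 8 arrays. It had signals of 8.59 and 8.40 with 5% IH, 8.08 and 7.73 with 10% IH, 8.84 and 8.55 with control, and 6.27 and 6.12 with autologous plasma. Arrays of 5% IH and control overlapped, and those of 10% IH lay below both groups. The log2 ratio was -0.79 for 10% IH against control (SE 0.148, 1.73-fold lower, limma's adjusted p = 0.920), with -0.76 within BN1 and -0.82 within BN2, and 0.59 for 5% IH against 10% IH (higher with 5% IH, limma's adjusted p = 0.981). For 5% IH against control it was -0.20 (95% interval -0.54 to 0.13), which did not meet the criterion. That ratio met it without the 5% IH BN1 array (-0.30) or without the control BN2 array (-0.35).

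**Figure D2:**
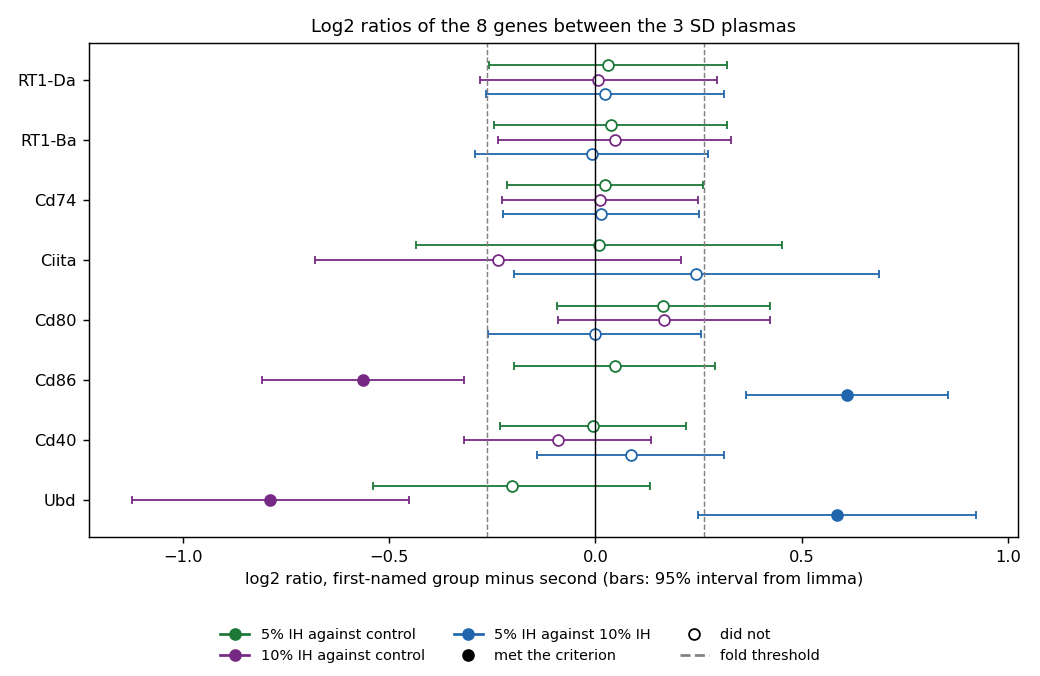
Log2 ratios of the 8 genes (horizontal axis, first-named group minus second) between the SD plasmas, with 95% intervals from limma, and filled points where the criterion was met. The filled points are *Cd86* and *Ubd*, at -0.56 and -0.79 for 10% IH against control and at 0.61 and 0.59 for 5% IH against 10% IH, and all 3 ratios of *RT1-Da*, *RT1-Ba* and *Cd74* lie within 0.05 of 0.

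By count, 2 of the 8 genes (*Cd86* and *Ubd*) met the criterion as lower with 10% IH than with control plasma, where 2.26% of all 14217 genes did so, and none as higher, where 2.04% did. The same 2 genes were higher with 5% IH than with 10% IH (2.63% of all genes), and none was lower (1.85%). With 5% IH against control, 0 of the 8 genes met it in either direction, against 1.46% of all genes higher and 1.04% lower. In each of these 3 comparisons limma's adjusted p was under 0.05 for 0 members and for 0% of all genes (0.0%). At an unadjusted p under 0.05, limma counted 0 members for 5% IH against control (1.94% of all genes), 2 for 10% IH against control (4.12%) and 2 for 5% IH against 10% IH (4.05%). The 2 comparisons of *Cd86* and *Ubd* share the 10% IH arrays, so they are not independent of each other. The 8 genes were chosen with earlier results of these data known, so the counts beside these shares are no test of the set. The median log2 ratio of the 4 class II members for 10% IH against control was 0.01 and that of the 3 costimulatory members -0.09, beside -0.00117 over all genes.

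Each SD plasma was set against autologous plasma, which compares plasma of another strain with BN plasma. The SD plasma donors were also younger than the BN rats and were kept at another site. The paper describes the autologous plasma as a self baseline. Strain, age, site and self against foreign plasma thus cannot be told apart here, and the part of each was not tested. *Ubd*, *Cd86* and *Cd40* were higher with every SD plasma, whereas the class II alpha chains and *Cd74* did not meet the criterion with any. *Ubd* was higher by 2.30 with 5% IH (4.93-fold, limma's adjusted p = 5.19e-05), by 1.72 with 10% IH (3.29-fold, limma's adjusted p = 0.000381) and by 2.51 with control plasma (5.68-fold, limma's adjusted p = 4.15e-05), each with an SE of 0.148. *Cd86* was higher by 1.26 with 5% IH (2.40-fold, limma's adjusted p = 0.000284), by 0.65 with 10% IH (1.57-fold, limma's adjusted p = 0.0210) and by 1.21 with control plasma (2.32-fold, limma's adjusted p = 0.000470). Neither of these 2 genes had overlapping arrays in any of the 3 comparisons.

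The second *Cd86* probe set gave 0.57, 0.41 and 0.67 for 5% IH, 10% IH and control against autologous plasma, which met the criterion but missed 0.05 by limma's adjusted p (0.0982, 0.359 and 0.0520). *Cd40* was higher by 0.57 with 5% IH (limma's adjusted p = 0.0215), by 0.48 with 10% IH (limma's adjusted p = 0.0699) and by 0.57 with control plasma (limma's adjusted p = 0.0226). Both calls of *Cd40* by limma were lost with the arrays of the 2 groups alone and without any one of the 5% IH arrays, the control arrays or the autologous BN2 array, as with control plasma at 0.48 without the last of these (limma's adjusted p = 0.127). The dim *Cd80* probe set gave 0.10, 0.11 and -0.06 in the same order, and its arrays overlapped in each comparison.

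Of the class II members, *Ciita* alone met the criterion, by 0.51 with 5% IH, 0.27 with 10% IH and 0.50 with control plasma (SE 0.195, limma's adjusted p = 0.386, 0.742 and 0.416). This rested on the autologous BN2 array, since without it the values were 0.19, -0.059 and 0.18. With control plasma the criterion was also missed without the control BN1 array (0.38). The second *Ciita* probe set, 1369214_a_at, gave 0.21, which did not meet the criterion, 0.33 and 0.30. Log2 ratios of *RT1-Ba* were 0.25, 0.26 and 0.22, those of *RT1-Da* 0.16, 0.14 and 0.13, and those of *Cd74* 0.14, 0.12 and 0.11, with 95% intervals that all held 0 (from -0.16 to 0.55 over the 3 genes). The 10% IH ratio of *RT1-Ba* (0.2637) passed the fold threshold, but its Rank Product p was 0.0537. Its other probe sets gave 0.24, 0.25 and 0.22 (1392334_at), 0.03, 0.11 and 0.03 (1370822_at), and 0.14, -0.02 and 0.23 (1377334_at). Without the autologous BN1 array, the brightest *RT1-Ba* probe set met the criterion with each SD plasma (0.34, 0.35 and 0.30) and *RT1-Da* with 5% IH (0.29).

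**Figure D3:**
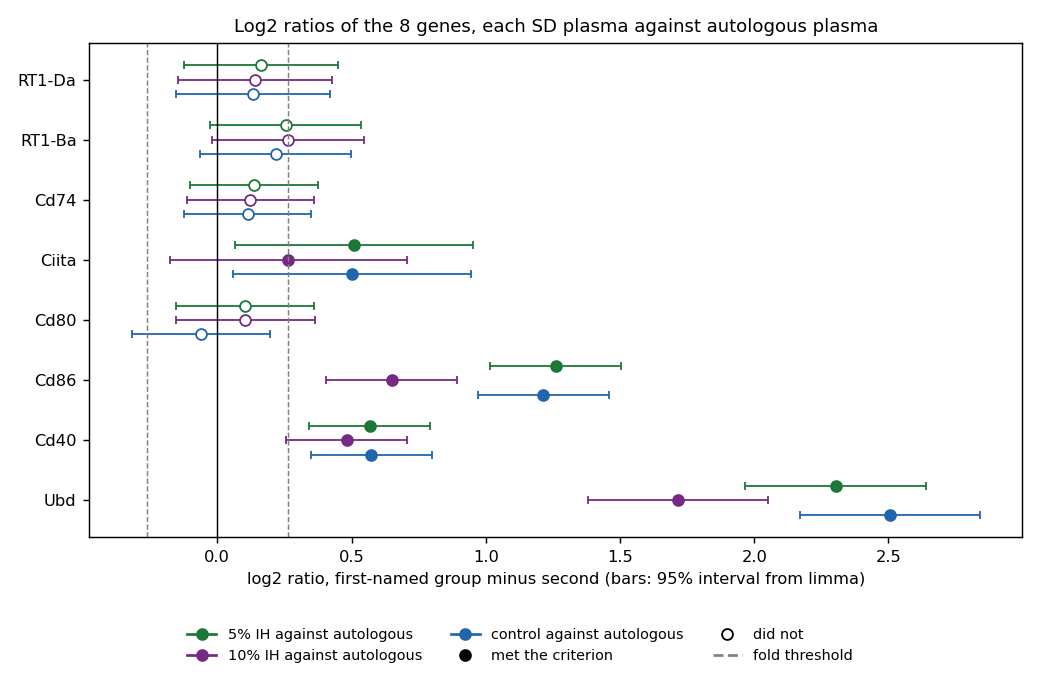
Log2 ratios of the 8 genes (horizontal axis) for each SD plasma against autologous plasma, with 95% intervals from limma and filled points where the criterion was met. *Ubd* (1.72 to 2.51), *Cd86* (0.65 to 1.26) and *Cd40* (0.48 to 0.57) lie right of the fold threshold with all 3 plasmas, and *Cd74* and *RT1-Da* lie between 0.11 and 0.16.

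In all, 4 of the 8 genes met the criterion as higher with 5% IH than with autologous plasma (6.24% of all genes), 4 with 10% IH (5.39%) and 4 with control plasma (6.16%), and none was lower, where 4.18%, 3.62% and 3.97% of all genes were. By limma's adjusted p, 3 members (2.75% of all genes), 2 members (1.81%) and 3 members (2.44%) passed 0.05. The 3 comparisons share the autologous arrays and are not independent, and the choice of the 8 genes with earlier results known limits these counts too.

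Markers of monocytes and macrophages, and some of B cells and dendritic cells, moved with these differences. The summed linear signal of the 9 measured markers of 10 was 3914 to 4625 with 5% IH, 3853 to 4024 with 10% IH, 3330 to 3944 with control and 466 to 768 with autologous plasma. *Cd14*, a monocyte receptor for lipopolysaccharide, had signals of 10.21 and 10.40 with 5% IH, 9.93 and 9.94 with 10% IH, 9.78 and 10.03 with control, and 4.48 and 4.78 with autologous plasma. Of the 9 markers, 8 met the criterion as higher with every SD plasma than with autologous plasma, where 5.39% to 6.24% of all genes did. The exception was *Cd163*, which had low signals of 2.69 to 3.15 on all arrays. Of the 6 measured B cell markers of 9, *Fcer2*, which encodes CD23, an IgE receptor, was higher by 1.35 with 5% IH, 0.65 with 10% IH and 1.26 with control plasma, and *Blk*, a B cell tyrosine kinase, by 0.62, 0.38 and 0.77. *Cd79b* met the criterion with 10% IH alone, and *Ms4a1*, *Cr2* and *Cd22* met it with no SD plasma. The median log2 ratio of the 6 B cell markers was 0.20, 0.18 and 0.22. Of the 7 measured dendritic cell markers of 12, *Itgax* was higher by 0.64, 0.60 and 0.53 and *Irf7* by 0.44, 0.32 and 0.45. *Flt3* went the other way and met the criterion as lower with 5% IH and 10% IH than with autologous plasma. The median log2 ratio of the 7 was -0.08, 0.01 and 0.03, so the dendritic cell list as a whole did not rise. In bulk RNA, fewer cells of a type and less RNA per cell cannot be told apart, and the part of these markers in the differences of *Ubd*, *Cd86* and *Cd40* was not tested.

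Between 10% IH and control plasma, 0 of 9 monocyte markers met the criterion, where 2.04% of all genes were higher and 2.26% lower, and *Cd14* differed by 0.03. B cell markers split. *Fcer2* had signals of 6.64 and 6.63 with 5% IH, 6.07 and 5.79 with 10% IH, 6.61 and 6.48 with control, and 5.54 and 5.03 with autologous plasma, a log2 ratio of -0.61 for 10% IH against control. *Blk* had 7.37 and 7.49 with 5% IH, 7.12 and 7.29 with 10% IH, 7.58 and 7.60 with control, and 7.02 and 6.62 with autologous plasma, a log2 ratio of -0.39 for 10% IH against control. The other 4 of the 6 measured B cell markers did not meet the criterion, among them *Ms4a1*, which encodes CD20, at 9.50 and 9.39 with 10% IH against 9.58 and 9.48 with control. The summed signal of the 6 markers was 3032 to 3254 with 5% IH, 2740 to 3578 with 10% IH, 3103 to 3245 with control and 2500 to 2952 with autologous plasma. With 5% IH, 4 of the 9 monocyte markers were higher (*Cd14* by 0.40 among them) and 1 was lower than with control plasma, beside 1.46% and 1.04% of all genes. None of the 8 genes met the criterion there. For 5% IH against 10% IH, where *Cd86* and *Ubd* were higher, 3 of the 9 monocyte markers were higher too (2.63% of all genes). These were *Cd14* by 0.37, *Fcgr1a* by 0.37 and *Adgre1* by 0.55. Alone of the 6 B cell markers, *Fcer2* was higher, by 0.71, and alone of the 10 T cell markers, the adaptor gene *Trat1*, by 0.30. *Trat1* was also the only T cell marker that met the criterion for 10% IH against control, at -0.32. The median log2 ratio of the 10 T cell markers was -0.02 for 5% IH against 10% IH and 0.04 for 10% IH against control. The part of these markers in the results was not tested.

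**Figure D4:**
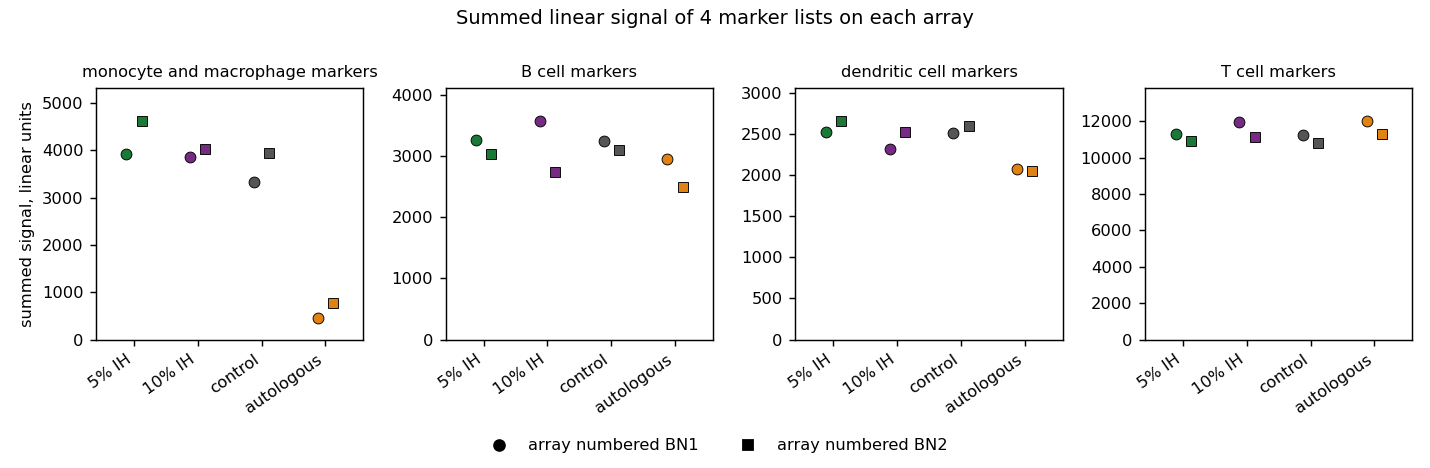
Summed linear signal (vertical axis, each starting at 0) of the measured markers of monocytes and macrophages, B cells, dendritic cells and T cells by plasma group (horizontal axis), with circles for arrays numbered BN1 and squares for BN2. Monocyte markers are lowest with autologous plasma (466 to 768, against 3330 to 4625 over the SD plasmas), and the B cell sum differs more between the 2 arrays of 10% IH (2740 to 3578) than between groups.

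Other genes of the pathway came from fixed lists, whose counts are to be read beside the shares of all genes. Between the SD plasmas those shares were 1.04% to 2.63% in either direction. A count of 0 in lists of 7 to 21 measured genes is near them and does not set a list apart. Against autologous plasma, 5.39% to 6.24% of all genes were higher and 3.62% to 4.18% lower. Of the 7 measured class II chains and chaperones of 12 listed, 0 met the criterion between the SD plasmas, whereas *RT1-DMa* and *RT1-DMb*, the chains of the molecule that loads peptide onto class II, were higher with every SD plasma than with autologous plasma. *RT1-DMa* had signals of 9.02 and 8.95 with 5% IH, 9.40 and 8.78 with 10% IH, 8.97 and 8.92 with control, and 8.46 and 8.08 with autologous plasma. Its log2 ratio to autologous plasma was 0.71 with 5% IH, 0.82 with 10% IH and 0.67 with control plasma (limma's adjusted p = 0.151, 0.124 and 0.197). For *RT1-DMb* it was 0.57, 0.49 and 0.50. The median of the 7 genes was 0.17, 0.18 and 0.17, beside -0.01 over all genes in each comparison.

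Among 11 measured regulators of class II genes of 14, 0 met the criterion between the SD plasmas, and *Irf1*, an interferon-induced transcription factor, and *Ciita* did so against autologous plasma. *Irf1* was higher by 0.28 with 5% IH, 0.29 with 10% IH and 0.31 with control plasma. *Rfx5*, a subunit of the X box factor, had signals of 9.48 and 9.37 with 5% IH, 9.40 and 9.30 with 10% IH, 9.50 and 9.43 with control, and 9.26 and 9.16 with autologous plasma, and did not meet it.

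Of 10 measured genes of class II processing and turnover, 6 were higher and 1 lower with control than with autologous plasma, and the counts were 6 and 1 with 5% IH and 6 and 0 with 10% IH. *Ctsl*, the protease cathepsin L, was higher by 1.22 with 5% IH, 0.90 with 10% IH and 1.04 with control plasma (limma's adjusted p = 0.000252, 0.00203 and 0.000830). *Ctsb*, cathepsin B, was higher by 0.95, 0.92 and 0.81 and *Lgmn*, an asparagine endopeptidase, by 0.70, 0.67 and 0.71 in the same order. Cathepsins are abundant in monocytes, whose markers were also higher with every SD plasma than with autologous plasma. With 5% IH against control, 4 of the 9 monocyte markers were higher and 1 was lower, and 0 of the 10 genes met the criterion. The part of monocytes in these values was not tested. Between the SD plasmas, *Ctsl* was higher with 5% IH than with 10% IH by 0.32. *Cst3*, a cathepsin inhibitor, had 9.52 and 9.55 with 5% IH, 10.03 and 9.69 with 10% IH, and 9.53 and 9.61 with control, higher by 0.29 with 10% IH than with control.

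Of 14 measured costimulatory ligands and receptors of presenting cells of 20 listed, *Cd86* alone met the criterion for 10% IH against control. *Icam1*, the adhesion ligand of LFA-1, was higher with 5% IH than with control plasma by 0.29 and than with 10% IH by 0.29, with signals of 8.48 and 8.64 with 5% IH, 8.25 and 8.29 with 10% IH, and 8.18 and 8.36 with control. *Cd83*, a maturation marker of dendritic cells, gave -0.23 for 10% IH against control, under the threshold, with signals of 9.95 and 9.76 against 10.14 and 10.04. Against autologous plasma 6 of the 14 were higher with 5% IH, 5 with 10% IH and 6 with control plasma. The largest of these, *Icam1*, was higher by 1.72 with 5% IH (limma's adjusted p = 7.62e-05), 1.43 with 10% IH and 1.44 with control plasma, followed by *Cd86*.

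On the T cell side, 1 of the 10 measured partners of 16 met the criterion for 10% IH against control: *Ctla4*, the inhibitory receptor for both B7 ligands, was higher by 0.28, with signals of 5.70 and 5.60 against 5.41 and 5.32. The 95% interval of this *Ctla4* ratio was -0.01 to 0.57, and its 2 autologous arrays had 5.34 and 5.70. *Cd28*, the activating receptor, had 5.41 and 5.39 with 10% IH against 5.14 and 5.46 with control and did not meet the criterion. *Cd40lg*, the ligand of CD40, met the criterion as lower with each SD plasma than with autologous plasma, with signals of 5.48 and 5.37 with 5% IH, 5.40 and 5.63 with 10% IH, 5.32 and 5.60 with control, and 6.10 and 5.66 with autologous plasma. Its within-BN2 differences were -0.29, -0.03 and -0.06, so that most of the change stood in BN1.

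Of 8 measured partners of FAT10, *Ubd* itself included, none but *Ubd* met the criterion between the SD plasmas. *Uba6*, its activating enzyme, had 8.98 and 8.92 with 5% IH, 8.83 and 8.81 with 10% IH, and 8.99 and 8.85 with control. *Sqstm1*, an autophagy receptor, was higher with 10% IH than with autologous plasma by 0.27. Of 21 measured genes of MHC class I presentation of 27, 0 met the criterion between the SD plasmas, and up to 3 (*Psme2*, *Calr* and *Pdia3*, a proteasome activator subunit and 2 chaperones) did against autologous plasma, the largest being *Calr* by 0.52 with 5% IH.

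Of 19 cytokines and receptors that act on presenting cells, 3 were higher with 5% IH than with control plasma (1.46% of all genes), *Il10* by 0.46, *Tnf* by 0.44 and *Il18* by 0.31. *Tnf*, an inducer of *Ubd* in other cells, had signals of 6.52 and 6.37 with 5% IH, 5.82 and 6.12 with 10% IH, 6.04 and 5.98 with control, and 4.73 and 5.00 with autologous plasma. Its 10% IH and control arrays overlapped (log2 ratio -0.04), while it was higher with 5% IH than with 10% IH by 0.48. Against autologous plasma *Tnf* was higher by 1.58 with 5% IH, 1.10 with 10% IH and 1.14 with control plasma. TNF protein was not measured in the plasmas or cultures, and its part in the values of *Ubd* was not tested. With 10% IH against control another 3 of the 19 were higher (2.04% of all genes). These were *Socs1* and *Socs3*, feedback inhibitors of cytokine signaling, by 0.38 and 0.41, and *Ifngr1*, a chain of the interferon gamma receptor, by 0.31.

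Profiles over the 8 arrays were compared between each of the 2 members of widest range and all 14216 other genes, as the root mean square difference of log2 signals after each gene was centred on its own mean. For *Cd86* the nearest were *Id2*, an inhibitor of basic helix-loop-helix factors (0.0874), *Fcer2* (0.154) and *Fam167a* (0.158). *Id2* had signals of 8.71 and 8.73 with 5% IH, 8.41 and 8.12 with 10% IH, 8.59 and 8.73 with control, and 7.35 and 7.42 with autologous plasma, the same order of groups as *Cd86*. For *Ubd* the nearest were *Rapgef5* (0.298), *Gjb2* (0.333) and *Clec7a*, the beta-glucan receptor of myeloid cells (0.340). *Clec7a* had 7.76 and 7.89 with 10% IH against 7.84 and 8.06 with control, so that its arrays overlapped where those of *Ubd* did not.

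**Figure D5:**
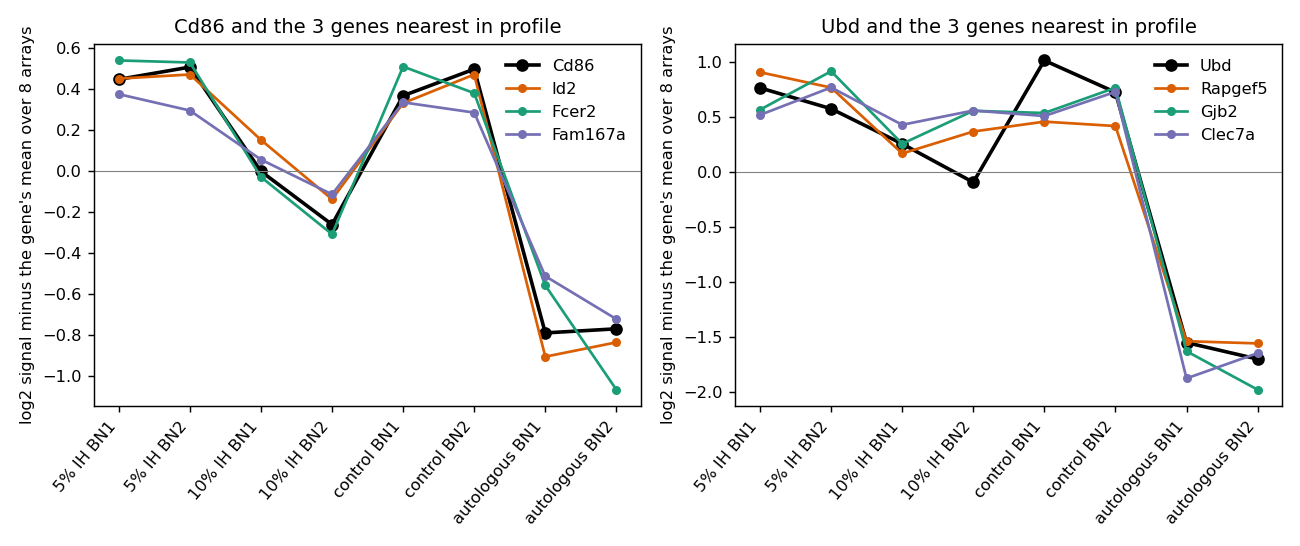
Log2 signal minus the gene's own mean over the 8 arrays (vertical axis) on each array (horizontal axis), for *Cd86* and *Ubd* in black and the 3 genes nearest to each in profile in color. *Id2* runs within 0.0874 of *Cd86* by root mean square, and the genes nearest to *Ubd* (0.298 to 0.340) share its low autologous arrays but not the size of its difference between 10% IH and control plasma.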

How the data were processed

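RNA of reporter PBMCs was read on 8 Affymetrix rat expression arrays, 2 for each of 4 plasmas. The log2 values were made by the authors with Robust Multichip Analysis in Expression Console before they were deposited, which corrects background, forces the arrays onto one distribution of signals and summarizes each probe set, so that a shift shared by most genes would not be seen. The submitters' processing notes also name Partek, without a role. Of 31042 probe sets, 20826 had 1 gene symbol, 436 several and 9780 none in the platform annotation, and all 8 genes matched a RefSeq gene identifier. No scan date or slide was given, and the number of arrays limits the precision.

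The Rank Product was computed with a Python 3.11.15 implementation, since the package named in the methods was not at hand, from all 4 between-array ratios with 100 permutations within arrays. Linear models over all 8 arrays and 4 groups were fitted in R 4.3.3 with limma 3.58.1, without a donor term, and standard errors and 95% intervals are limma's. The limma models and the Rank Product criterion were tested on simulated data, though not for all comparisons, and the other steps were not tested in this way. Deviations from group means correlated between same-numbered arrays at 0.165, 0.24 and 0.059 among the SD plasmas, but at -0.0833, -0.171 and -0.00387 with the autologous arrays, so donor was used as an alternative only. The other alternatives were the 2-sided p, a filter on dim probe sets, a further quantile normalization, median centring, averaging all probe sets per gene, other limma settings and leaving out each array.

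The 8 genes, the 8 pathway lists and the 8 marker lists (158 of 200 genes measured) were chosen with earlier results of these data known. Beside the 8 genes, the text names up to 3 genes per pathway list and comparison that met the criterion in the same direction within both donors, and the 3 nearest in profile to each of 2 members. *Adgre1*, *Blk*, *Cd14*, *Cd163*, *Cd22*, *Cd28*, *Cd79b*, *Cr2*, *Fcer2*, *Fcgr1a*, *Irf7*, *Itgax*, *Ms4a1*, *Rfx5*, *Trat1* and *Uba6* were added after their values were seen.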

Additional observations from a re-analysis of the deposited data

Results flagged for a closer look

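*Cd86* is singled out because, within both donors, its signal stood above control with 5% IH and below control with 10% IH. Within BN1 and BN2 its log2 ratio to control was 0.08 and 0.01 with 5% IH, and -0.37 and -0.76 with 10% IH. The positive ratios are smaller than the difference between the 2 control arrays, and the mean ratio for 5% IH (0.05) became -0.017 without the control BN1 array and -0.027 with both probe sets averaged, so that no rise with 5% IH is shown. The log2 ratio of 5% IH to 10% IH was 0.61 (SE 0.107), which met the criterion, while limma's adjusted p was 0.981. The second probe set, 1387627_at, did not show opposite directions, with -0.15 and -0.05 for 5% IH and -0.02 and -0.51 for 10% IH. Whether the 2 ratios to control differ was not tested apart from that comparison of the 2 IH plasmas.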

How the results depend on the processing

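*Cd86* and *Ubd* met the criterion for 10% IH against control and for 5% IH against 10% IH under every alternative tried, leaving out each array included, and 0 members passed 0.05 by limma's adjusted p between the SD plasmas under any of them. With donor as a replicate block the number of members that met the criterion stayed at 0, 2, 2, 4, 4 and 4 (5% IH against control, 10% IH against control, 5% IH against 10% IH, and control, 5% IH and 10% IH against autologous), and the limma counts stayed at 0, 0, 0, 3, 3 and 2. The same block with the autologous numbers crossed, chosen after seeing the data, gave 4, 4 and 3 by the criterion and 3, 3 and 2 by limma. Leaving out 1 array at a time, the counts by the criterion ran from 0 to 1, 2 to 3, 2 to 3, 3 to 5, 3 to 6 and 3 to 5 in that order, and the limma counts against autologous plasma from 2 to 3, 2 to 4 and 1 to 2. The limma counts for 5% IH and control against autologous plasma fell to 2 and 2, by the loss of *Cd40*, with the arrays of the 2 groups alone. For 10% IH against autologous plasma the limma count fell to 1 (*Ubd* alone) with the arrays of the 2 groups alone, which leaves fewer samples, and with all probe sets of a gene averaged, which joins the weaker second *Cd86* probe set. It also fell to 1 without the 10% IH BN1 array or without either autologous array. *Ciita* for 10% IH against autologous plasma (0.27) missed the criterion with the 2-sided p, without dim probe sets and after median centring (0.25), and was 0.59 without the autologous BN1 array but turned to -0.059 without the autologous BN2 array. Over 474 recomputed ratios of single genes, 453 stayed on the same side of the criterion, 12 newly met it, 8 no longer met it and 1 turned. Dim signal limits *Cd80*, whose probe set the filter removes.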
